A study of Mus musculus with 18 samples.

Results

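The KLF and EGR transcription factors were examined in macrophages and osteoclasts through 8 member genes, Klf2, Klf3, Klf4, Klf6, Klf10, Klf13, Egr1 and Egr2. Every probe annotated to a member was taken, whatever its values, which gave 11 probes (3 for Klf4, 2 for Klf6 and 1 for each other gene) out of 25697 probes and 16593 genes on the array. Of these 11 probes, 10 were detected often enough to be tested, and only the Klf10 probe was not. The cells were bone marrow-derived macrophages (BMMs) and the osteoclasts made from them in culture, taken from ERαΔLysM mice and from ERα f/f littermates, all on the C57BL/6 background. In ERαΔLysM mice, Cre expressed from the lysozyme M locus deletes the floxed gene of estrogen receptor α in the myeloid lineage, while ERα f/f mice carry the same floxed alleles without Cre. Each genotype was measured at 3 stages on 3 arrays each, 18 in all: BMMs without RANKL, pre-osteoclasts after 2 days of RANKL and mature osteoclasts after 4 days, with RANKL at 30 ng/ml. All cultures received M-CSF at 30 ng/ml.

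The paper's methods state that BMMs were taken from 3 young adult mice of a genotype, and its results text says that the cells on the arrays had received E2, which the sample labels do not mention, so E2 would be shared by every group. Neither the paper nor the labels say whether each of the 3 arrays of a group stands for 1 of these mice, and a p value here therefore measures the spread between these samples, which may be technical. The probes of both estrogen receptor genes (2 for Esr1 and 3 for Esr2) were detected on 0 of 18 arrays, so the deletion could not be checked on these arrays. Markers of the stages were read as well. In mature osteoclasts against BMMs, 14 of 14 osteoclast markers tested were higher and 8 of 8 macrophage markers lower, beside 34.8% and 33.4% of all tested probes. In pre-osteoclasts against BMMs, 12 of the 14 were higher and 8 of the 8 lower, beside 30.1% and 25.9%. In mature osteoclasts against pre-osteoclasts, 12 of the 14 were higher and 4 of the 8 lower, beside 27.8% and 28.9%. Median array signal ran from 116.4 to 190.8, each array detected 10770 to 12031 probes, and the lowest correlation between arrays of a group was 0.9882. Levels are given on the log2 scale after background correction and quantile normalization, so a log2 difference of 1 stands for 2-fold, and levels are compared within a probe and never between probes.

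KLF proteins share a C-terminal zinc finger domain that binds GC-rich and CACCC elements, and individual members activate or repress transcription depending on the cofactors they recruit. EGR proteins bind a related GC-rich element and belong to the immediate early genes, which are induced within minutes of growth factor or cytokine signaling without new protein synthesis. In the monocyte lineage, several members are known regulators of macrophage activation, and M-CSF signaling induces Egr1 and Egr2.

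The promoter sequences of 3 members are shown because matches to the elements of MEF2, EGR and serum response factors, whose own levels are given further on, stand in them. RefSeq windows of 250 bases before the transcription start were found for 6 of the 8 genes (1 window each for Klf2, Klf3, Klf4, Klf6 and Klf13, and 5 for Egr2). Windows for Klf10 and Egr1 were not used here. The coordinates are those of GRCm38.p6, both strands were searched, and capitals mark the match named for each window. In the Klf2 window (chr8:72318812-72319061, + strand), the capitals mark a MEF2 consensus match 118 bases before the start. In the Klf3 window (chr5:64803271-64803520, + strand), they mark 2 matches to the EGR element GCGGGGGCG, 209 and 191 bases before the start, which overlap matches to the GC box. In the Egr2 window (chr10:67537316-67537565, + strand), they mark a CArG box match, the consensus bound by serum response factor, 72 bases before the start.
Klf2 promoter: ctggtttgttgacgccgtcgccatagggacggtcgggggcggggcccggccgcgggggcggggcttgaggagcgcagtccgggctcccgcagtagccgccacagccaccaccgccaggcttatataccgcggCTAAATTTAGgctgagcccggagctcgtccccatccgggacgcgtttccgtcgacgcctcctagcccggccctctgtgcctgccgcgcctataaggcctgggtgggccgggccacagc
Klf3 promoter: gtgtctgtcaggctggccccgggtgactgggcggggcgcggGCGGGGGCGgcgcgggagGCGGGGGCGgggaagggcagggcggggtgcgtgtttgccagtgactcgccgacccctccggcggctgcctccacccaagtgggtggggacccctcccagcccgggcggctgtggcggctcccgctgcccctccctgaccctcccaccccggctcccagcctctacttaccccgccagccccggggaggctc
Egr2 promoter: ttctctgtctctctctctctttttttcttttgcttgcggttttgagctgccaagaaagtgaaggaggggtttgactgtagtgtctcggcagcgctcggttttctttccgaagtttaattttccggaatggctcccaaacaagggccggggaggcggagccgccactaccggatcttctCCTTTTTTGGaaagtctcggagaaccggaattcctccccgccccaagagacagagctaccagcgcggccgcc
Of 32851 RefSeq mouse windows of the same length, 2.92% held a MEF2 match, 1.47% a CArG match and 3.06% an EGR match (GCGGGGGCG or GCGTGGGCG). The GC box GGGCGG stood in 32.7% of all windows and CACCC in 52% of them. Among the 6 genes with windows, Klf2 held the only MEF2 match and Egr2 the only CArG matches, in 4 of its 5 windows. Some of these Egr2 windows overlap and hold the same match. Klf10 and Egr1 were not searched. The EGR element also stood once in the windows of Klf2 and Klf4. A match describes the letters of a window and not the binding of a factor.

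The first comparison asked how the members' mRNA differed between stages of osteoclast formation, averaged over the genotypes. In pre-osteoclasts against BMMs, Klf2, Klf3, both Klf6 probes, Klf13 and Egr1 were lower, while Egr2 and 1 Klf4 probe were higher. By mature osteoclasts, Klf2, Klf3 and Klf6 were still below BMMs and the main Klf4 probe was lower as well, whereas Klf13, Egr1 and Egr2 were above BMMs. The Klf13 and Egr1 differences from BMMs at that stage were small and depended on the scaling of the arrays, as given below. A test was passed where the adjusted p from limma, corrected by Benjamini-Hochberg over all 13409 probes tested, was under 0.05.

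In pre-osteoclasts against BMMs, 8 of the 10 member probes passed, 2 higher and 6 lower, where 56.0% of all tested probes passed (30.1% higher and 25.9% lower). In mature osteoclasts against BMMs, 8 passed, 3 higher and 5 lower, beside 68.2% of all probes (34.8% higher and 33.4% lower). In mature osteoclasts against pre-osteoclasts, 7 passed, 5 higher and 2 lower, beside 56.7% of all probes (27.8% higher and 28.9% lower). The share of member probes lower in pre-osteoclasts than in BMMs was above that of all probes, and the other shares were closer to their background. With 10 probes, nothing particular to the members is read from this. The median log2 difference of the member probes was −0.63, −0.46 and 0.20 in these comparisons, beside 0.05, 0.04 and 3e-04 for all tested probes. In RNA from whole cultures, fewer cells of a type and less RNA per cell cannot be told apart.

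**Figure D1:**
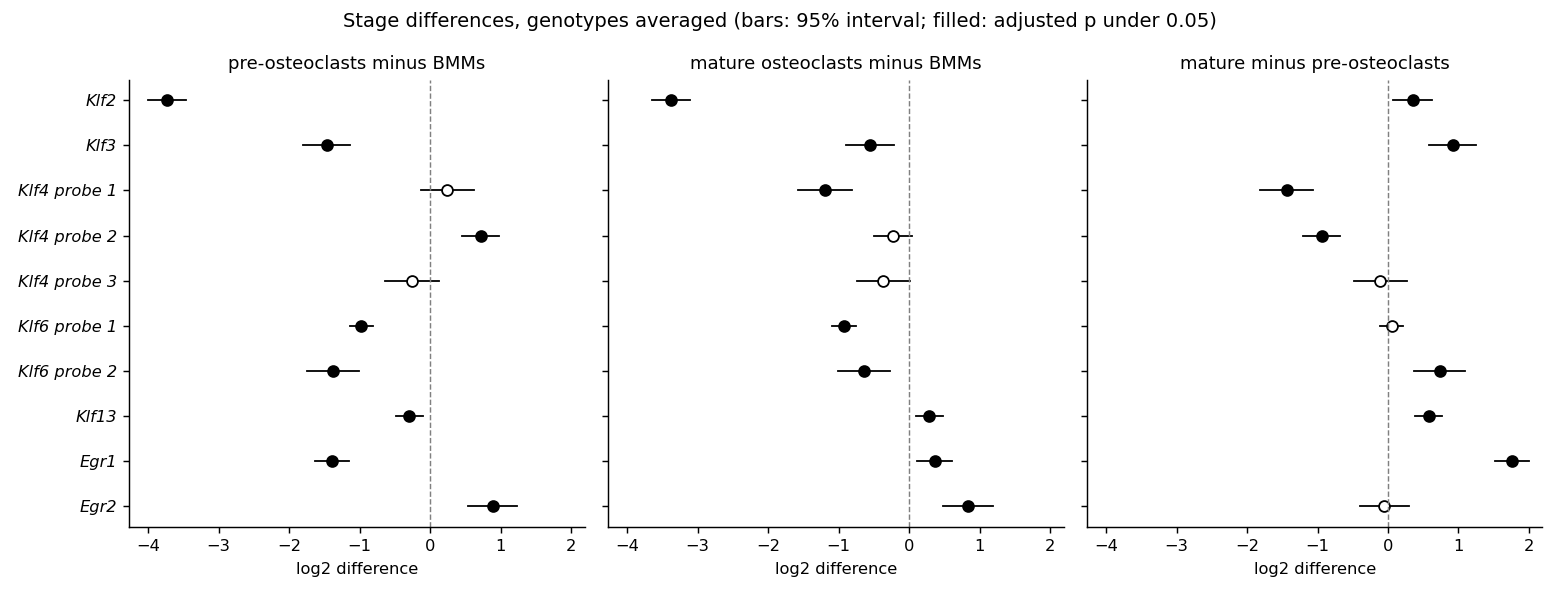
Log2 differences between stages for the member probes, averaged over the genotypes, with 95% confidence intervals. Filled points passed the test (adjusted p under 0.05) and open points did not. Klf2 lies farthest to the left, at −3.73 in pre-osteoclasts and −3.38 in mature osteoclasts against BMMs, while Egr1 lies on the left in pre-osteoclasts and on the right in mature osteoclasts against pre-osteoclasts (1.76).

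Klf2, a factor that keeps endothelial cells, T cells and monocytes in a quiescent, less inflammatory state, had the largest stage difference among the members. In BMMs, its log2 level was 10.24, 10.37 and 10.29 in ERαΔLysM cells and 10.56, 10.49 and 10.43 in ERα f/f cells. In pre-osteoclasts it was 6.26, 6.57 and 5.90 in ERαΔLysM cells and 7.02, 6.999 and 7.23 in ERα f/f cells. In mature osteoclasts it was 7.08, 6.88 and 6.49 in ERαΔLysM cells and 6.85, 7.42 and 7.37 in ERα f/f cells. Every BMM array stood far above every array of the later stages, and the probe was still detected on all 12 of those. The level was 13.3-fold lower in pre-osteoclasts than in BMMs (log2 difference −3.73, SE 0.13, limma adjusted p = 2.71e-13) and 10.4-fold lower in mature osteoclasts than in BMMs (−3.38, SE 0.13, adjusted p = 4.34e-13). Without background correction these were 6.41-fold and 5.75-fold.

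Klf2 was also slightly higher in mature osteoclasts than in pre-osteoclasts (log2 difference 0.35, SE 0.13, limma adjusted p = 0.02875), with overlapping arrays. That call was lost when any of 7 arrays was left out: ERα f/f pre-osteoclast replicates 1 and 2, ERα f/f mature osteoclast replicates 2 and 3, ERαΔLysM pre-osteoclast replicate 3, and ERαΔLysM mature osteoclast replicates 1 and 2 (adjusted p between 0.0561 and 0.0832). It was also lost with arrays scaled to a common median in place of quantile normalization (0.15, adjusted p = 0.588) and when the fit held only the groups compared (adjusted p = 0.0658). By genotype, the difference was 0.57 in ERαΔLysM cells (adjusted p = 0.0176) and 0.13 in ERα f/f cells (adjusted p = 0.610). Whether the genotypes differed in this comparison was not tested.

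Klf3, a repressor that recruits the CtBP co-repressors and is known from red cell and fat cell differentiation, was lowest at the middle stage. The log2 levels of the 6 arrays of a stage, given as lowest, median and highest, were 8.58, 8.95 and 9.24 in BMMs, 7.12, 7.29 and 8.12 in pre-osteoclasts and 8.16, 8.29 and 8.68 in mature osteoclasts. All pre-osteoclast arrays lay below the mature osteoclast arrays, which overlapped the BMM arrays at their top. Klf3 was 2.77-fold lower in pre-osteoclasts than in BMMs (log2 difference −1.47, SE 0.16, limma adjusted p = 5.49e-07). Between mature osteoclasts and BMMs the difference was smaller (−0.55, SE 0.16, adjusted p = 0.00556), and mature osteoclasts stood above pre-osteoclasts by 0.92 (adjusted p = 0.00012). With median-scaled arrays mature osteoclasts stood at −0.92 against BMMs, and without background correction at 0.59 against pre-osteoclasts. By genotype, the difference between mature osteoclasts and BMMs was −0.31 in ERαΔLysM cells (adjusted p = 0.249) and −0.79 in ERα f/f cells (adjusted p = 0.00608), and the interaction of 0.48 did not pass (adjusted p = 0.632).

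Klf4, a factor of monocyte differentiation and macrophage polarization that is also one of the reprogramming factors, was read by 3 probes. The brightest, called probe 1 here, had log2 levels of 6.64, 7.12 and 7.62 (lowest, median and highest of 6 arrays) in BMMs, 6.96, 7.31 and 7.95 in pre-osteoclasts and 5.53, 6.03 and 6.33 in mature osteoclasts. All arrays of the first pair of stages lay above those of the mature stage, where 5 of 6 arrays detected the probe. Klf4 probe 1 was 2.29-fold lower in mature osteoclasts than in BMMs (log2 difference −1.19, SE 0.18, limma adjusted p = 1.50e-05) and 2.70-fold lower than in pre-osteoclasts (−1.43, SE 0.18, adjusted p = 3.7e-06). Between pre-osteoclasts and BMMs it differed by 0.24 (adjusted p = 0.270). Without background correction the mature osteoclast values were −0.52 against BMMs and −0.65 against pre-osteoclasts.

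Klf4 probe 2 was close to background outside pre-osteoclasts. It was detected on 2 of 6 BMM arrays, 6 of 6 pre-osteoclast arrays and 1 of 6 mature osteoclast arrays, with log2 levels of 4.92 to 5.52, 5.67 to 6.30 and 4.73 to 5.57. No pre-osteoclast array overlapped the other stages. The probe was higher in pre-osteoclasts than in BMMs by 0.72 (SE 0.13, limma adjusted p = 1.15e-04) and lower in mature osteoclasts than in pre-osteoclasts by a log2 difference of −0.94 (adjusted p = 8.27e-06), values that were 0.22 and −0.30 without background correction and still passed. Between mature osteoclasts and BMMs it differed by −0.23 (adjusted p = 0.123), a comparison that passed without ERαΔLysM mature osteoclast replicate 1 (−0.33, adjusted p = 0.0130). Klf4 probe 3 was detected on 2, 1 and 1 of the 6 arrays of each stage and passed no stage comparison, though between mature osteoclasts and BMMs (−0.37, adjusted p = 0.0787) it passed when ERαΔLysM BMM replicate 2 (−0.47, adjusted p = 0.0283) or ERαΔLysM mature osteoclast replicate 1 (−0.50, adjusted p = 0.0133) was left out. The lower Klf4 level of the mature stage against pre-osteoclasts was thus read by probes 1 and 2, and the higher level of pre-osteoclasts against BMMs by probe 2 alone.

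Klf6, a member that responds early to stimuli and acts in macrophage inflammatory responses, was lower after RANKL by both of its probes. Probe 1 had log2 levels of 12.62, 12.77 and 13.09 (lowest, median and highest) in BMMs, 11.69, 11.84 and 11.92 in pre-osteoclasts and 11.70, 11.86 and 12.06 in mature osteoclasts. Probe 2 had 8.78, 9.03 and 9.26 in BMMs, 7.02, 7.83 and 8.19 in pre-osteoclasts and 8.11, 8.39 and 8.73 in mature osteoclasts. By each probe, all BMM arrays lay above all arrays of the later stages, by a narrow margin for probe 2. Klf6 was 1.96-fold lower in pre-osteoclasts than in BMMs by probe 1 (log2 difference −0.97, SE 0.08, limma adjusted p = 1.25e-08) and 2.59-fold lower by probe 2 (−1.37, SE 0.17, adjusted p = 3.48e-06). In mature osteoclasts against BMMs, probe 1 stood at −0.92 (limma adjusted p = 1.52e-08) and probe 2 at −0.64 (adjusted p = 0.00364). Probe 2 in that comparison was −0.70 in ERαΔLysM cells (adjusted p = 0.0218) and −0.58 in ERα f/f cells (adjusted p = 0.0520). Its pooled value was −0.49 without background correction and −1.005 with median-scaled arrays. The probes parted in mature osteoclasts against pre-osteoclasts, where probe 1 differed by 0.05 (adjusted p = 0.599) and probe 2 was higher by 0.73 (adjusted p = 0.00186).

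**Figure D2:**
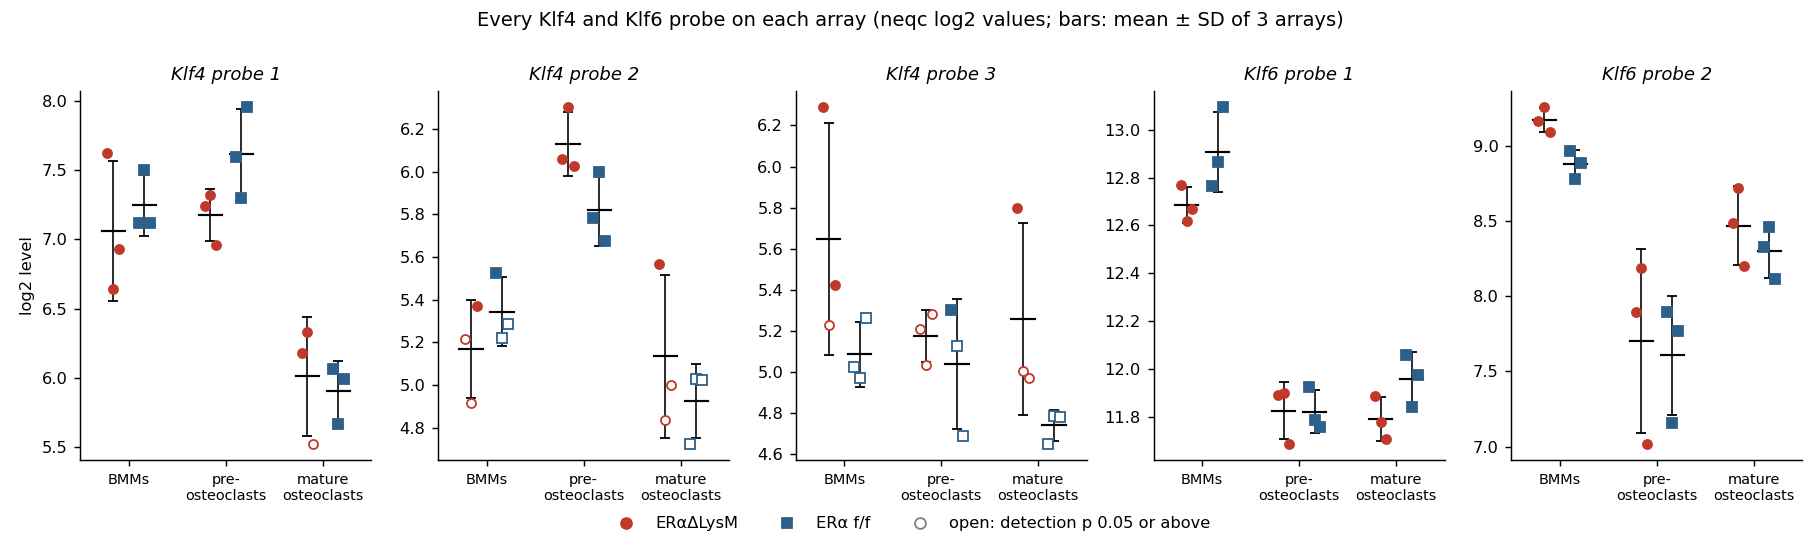
Log2 levels of the separate probes of Klf4 and Klf6 on each array, by stage, with ERαΔLysM to the left of ERα f/f and the group mean as a bar. Open points were not detected (detection p of 0.05 or above). Klf4 probe 1 falls at the mature stage, Klf4 probe 2 rises above background in pre-osteoclasts, and both Klf6 probes are highest in BMMs.

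Klf13, a member of the family known from T cell chemokine expression, moved little and in both directions. Its log2 levels were 9.84, 10.02 and 10.10 (lowest, median and highest) in BMMs, 9.57, 9.69 and 10.01 in pre-osteoclasts and 10.05, 10.31 and 10.48 in mature osteoclasts. Mature osteoclast and pre-osteoclast arrays did not overlap, while BMM arrays overlapped both. Klf13 was lower in pre-osteoclasts than in BMMs (log2 difference −0.30, SE 0.09, limma adjusted p = 0.0107) and higher in mature osteoclasts than in BMMs (0.28, SE 0.09, adjusted p = 0.0109). It was higher in mature osteoclasts than in pre-osteoclasts by 0.58 (adjusted p = 4.49e-05). With median-scaled arrays, the difference between mature osteoclasts and BMMs was 0.04 (adjusted p = 0.886). Klf10, a factor induced by transforming growth factor β that is known in osteoblasts and osteoclasts, was detected on 2 of 18 arrays, with log2 levels between 4.56 and 5.59, and was not tested.

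Egr1, the prototype immediate early zinc finger factor, dropped at the middle stage and stood above it at the last. In BMMs, its log2 level was 7.78, 7.79 and 7.74 in ERαΔLysM cells and 8.22, 8.69 and 8.24 in ERα f/f cells. In pre-osteoclasts it was 7.02, 6.87 and 6.79 in ERαΔLysM cells and 6.91, 6.15 and 6.34 in ERα f/f cells. In mature osteoclasts it was 8.36, 8.49 and 8.41 in ERαΔLysM cells and 8.43, 8.45 and 8.48 in ERα f/f cells. All pre-osteoclast arrays lay below those of the other stages, and the mature arrays lay within a narrow band inside the range of the BMM arrays.

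Egr1 was 2.63-fold lower in pre-osteoclasts than in BMMs (log2 difference −1.40, SE 0.12, limma adjusted p = 2.03e-08) and 3.38-fold higher in mature osteoclasts than in pre-osteoclasts (1.76, SE 0.12, adjusted p = 2.19e-09). Without background correction these log2 differences were −0.79 and 1.04, and both passed. Between mature osteoclasts and BMMs it was higher by 0.36 (adjusted p = 0.0109). That last difference was 0.65 in ERαΔLysM cells (adjusted p = 0.00253) and 0.07 in ERα f/f cells (adjusted p = 0.740), and with median-scaled arrays the pooled value turned to −0.02 (adjusted p = 0.941).

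Egr2, which with Egr1 takes part in macrophage fate choice and alternative activation, went the other way. Its log2 levels were 5.17, 5.95 and 6.11 (lowest, median and highest) in BMMs, where 5 of 6 arrays detected it, 6.44, 6.77 and 6.95 in pre-osteoclasts and 6.17, 6.69 and 7.05 in mature osteoclasts. Every array of the later stages lay above every BMM array. Egr2 was 1.85-fold higher in pre-osteoclasts than in BMMs (log2 difference 0.89, SE 0.16, limma adjusted p = 2.06e-04) and 1.78-fold higher in mature osteoclasts than in BMMs (0.83, SE 0.16, adjusted p = 2.76e-04). Mature osteoclasts and pre-osteoclasts differed by −0.05 (adjusted p = 0.803), with a 95% confidence interval of −0.40 to 0.30. Without background correction Egr2 stood at 0.34 in pre-osteoclasts and 0.32 in mature osteoclasts against BMMs, and both passed.

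**Figure D3:**
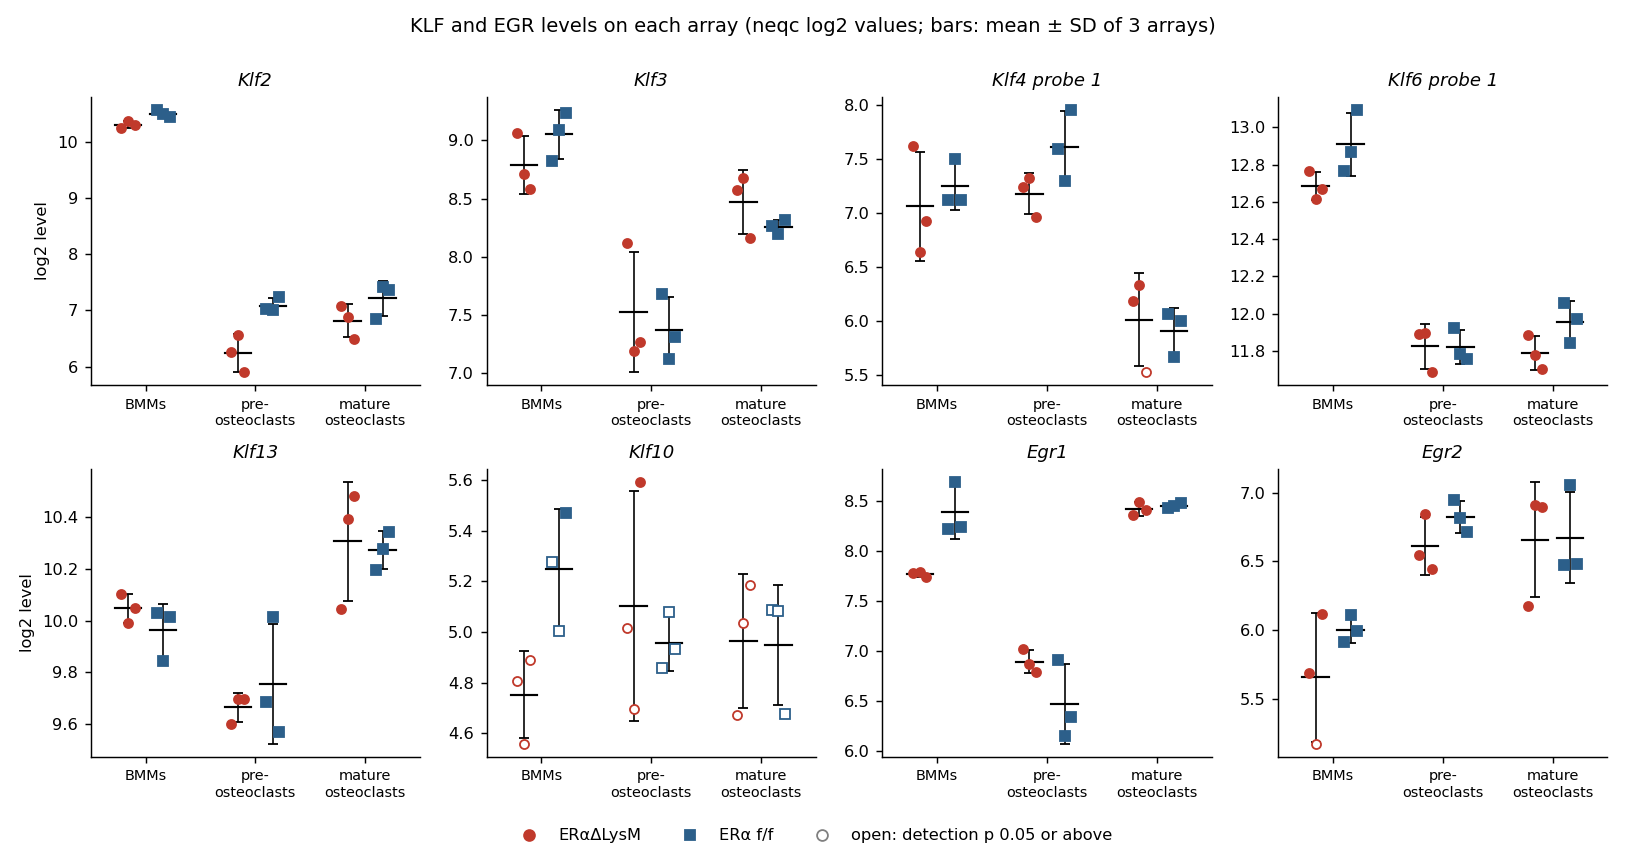
Log2 level of each member on each of the 18 arrays by stage, with ERαΔLysM to the left of ERα f/f in each stage, 3 arrays a group and the mean as a bar. Each panel has its own axis, and open points were not detected. Klf2 lies between 10.24 and 10.56 in BMMs and between 5.90 and 7.42 later, Egr1 dips in pre-osteoclasts, and Egr2 is lowest in BMMs.

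Within a genotype, 8 of the 10 probes passed in pre-osteoclasts against BMMs in ERαΔLysM cells and 7 in ERα f/f cells, beside 46.7% and 45.7% of all tested probes. In mature osteoclasts against BMMs, 6 passed in each genotype, beside 57.7% of all probes in ERαΔLysM cells and 59.2% in ERα f/f cells. In mature osteoclasts against pre-osteoclasts, 7 passed in ERαΔLysM cells and 6 in ERα f/f cells, beside 43.8% and 43.9% of all probes. Klf2 in pre-osteoclasts against BMMs stood at −4.06 in ERαΔLysM cells and −3.41 in ERα f/f cells. Egr1 in the same comparison stood at −0.87 in ERαΔLysM cells and −1.92 in ERα f/f cells. Both genes were thus lower in pre-osteoclasts in each genotype, and the tests of how far the genotypes differ follow.

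The second comparison asked whether loss of ERα in the myeloid lineage was accompanied by other levels of these factors at a given stage. No member passed at any stage: 0 of 10 probes passed in BMMs, pre-osteoclasts or mature osteoclasts by the limma adjusted p, where 0.321%, 0.0746% and 0.172% of all tested probes did. At an unadjusted p under 0.05, 2, 2 and 1 member probes passed, beside 13.4%, 8.15% and 7.03% of all tested probes. The probes behind these counts were Egr1 and Klf4 probe 3 in BMMs, Klf2 and Egr1 in pre-osteoclasts, and Klf2 in mature osteoclasts. Klf4 probe 3 stood at 0.56 in BMMs (unadjusted p = 0.0408, adjusted p = 0.347), detected on 2 of 3 ERαΔLysM arrays and 0 of 3 ERα f/f arrays. The values of Klf3, Klf6, Klf13, Egr2 and the remaining Klf4 comparisons ran from −0.44 (Klf4 probe 1 in pre-osteoclasts) to 0.52 (Klf4 probe 3 in mature osteoclasts). The median log2 difference of the member probes was −0.19, 0.05 and 0.07 at the 3 stages, beside −0.0031, −0.0068 and −0.0066 for all tested probes. With 3 arrays a group, the standard error of a genotype difference had a median of 0.1715 log2 units, and the number of arrays limits the precision.

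Klf2 had the lowest unadjusted p among the members in the genotype comparisons. In pre-osteoclasts, its level averaged 6.24 ± 0.33 in ERαΔLysM cells and 7.08 ± 0.13 in ERα f/f cells (SD, n = 3 each), and all 3 ERαΔLysM arrays lay below all 3 ERα f/f arrays. The log2 difference was −0.84 (SE 0.18, 95% confidence interval −1.22 to −0.45), with an unadjusted p of 2.98e-04 and a limma adjusted p of 0.137. In BMMs it was −0.19 (adjusted p = 0.689), also with arrays that did not overlap, and in mature osteoclasts −0.39 (adjusted p = 0.705), with overlapping arrays. The sign was the same at each stage, and the change of the genotype difference between pre-osteoclasts and BMMs was −0.64 (SE 0.26, adjusted p = 0.457). Over the 30 alternatives, the difference in pre-osteoclasts ran from −1 to −0.37, with adjusted p values from 0.0544 to 0.762.

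For Egr1, the genotype differences had opposite signs in BMMs and pre-osteoclasts, and neither passed. In BMMs, its level averaged 7.77 ± 0.03 in ERαΔLysM cells and 8.39 ± 0.27 in ERα f/f cells (SD, n = 3 each), with no overlap. The log2 difference was −0.62 (SE 0.16, 95% confidence interval −0.96 to −0.27), with an unadjusted p of 0.00165 and a limma adjusted p of 0.129. In pre-osteoclasts, its level averaged 6.89 ± 0.12 in ERαΔLysM cells and 6.47 ± 0.40 in ERα f/f cells, with overlapping arrays and a difference of 0.42 (unadjusted p = 0.0194, adjusted p = 0.515). In mature osteoclasts the difference was −0.03 (adjusted p = 0.992, 95% confidence interval −0.38 to 0.31).

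The Egr1 difference in BMMs depended on the processing. It passed without background correction (−0.42, adjusted p = 0.0283), with array weights (−0.60, adjusted p = 0.0357) and with median-scaled arrays (−1.07, adjusted p = 0.0218), a scaling that itself put the median of all tested probes at −0.43. With the brightness of each array as a covariate it was −0.52 (adjusted p = 0.289). Over the 30 alternatives it ran from −1.07 to −0.42 with adjusted p values from 0.0218 to 0.416. Median array signal was 129.7 to 176.5 in ERαΔLysM BMMs and 165 to 190.8 in ERα f/f BMMs, and the part of array brightness beyond that covariate was not tested.

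The change of the genotype difference between stages was tested as an interaction. In pre-osteoclasts against BMMs, 0 of 10 member probes passed, beside 0.0522% of all tested probes, and 2 passed at an unadjusted p under 0.05, beside 9.67%. In mature osteoclasts against BMMs, 0 passed, beside 0.0597%, and 1 passed unadjusted, beside 10.2%. The largest was Egr1 in pre-osteoclasts against BMMs, at 1.04 (SE 0.23, unadjusted p = 3.63e-04, limma adjusted p = 0.199), which passed without ERα f/f pre-osteoclast replicate 1 (1.26, adjusted p = 0.0155). In mature osteoclasts against BMMs, the Egr1 interaction was 0.59 (adjusted p = 0.427). The other probe below an unadjusted p of 0.05 was Klf2, whose values are given above.

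By the arrays alone, the genotypes did not overlap for 3 of the 10 probes in BMMs, beside 23.6% of all tested probes. These were Klf2 and Egr1, lower in all ERαΔLysM arrays, and Klf6 probe 2, with log2 levels of 9.17, 9.26 and 9.10 in ERαΔLysM BMMs and 8.97, 8.78 and 8.89 in ERα f/f BMMs. In pre-osteoclasts 2 probes did not overlap, beside 10.2% of all, namely Klf2, lower in ERαΔLysM cells, and Klf4 probe 2, with 6.06, 6.30 and 6.03 in ERαΔLysM cells and 5.78, 6.00 and 5.67 in ERα f/f cells. In mature osteoclasts 1 did not overlap, beside 14.2%, and it was Klf4 probe 3, which was detected on 1 of these 6 arrays. With 10 probes, these counts stand near the background of each stage.

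The summed level of neutrophil markers was higher in ERαΔLysM BMMs. Of 11 such genes on the array, 10 were tested, and the summed level of the 11 was 21398 to 23840 in ERαΔLysM BMMs and 14528 to 16026 in ERα f/f BMMs. Among pre-osteoclasts it was 9615 to 14253 in ERαΔLysM cells, against 5632 to 12615 in ERα f/f cells. Among mature osteoclasts it was 4257 to 4933 in ERαΔLysM cells, against 2937 to 4013 in ERα f/f cells. By the limma test, 1 of the 10 was higher in ERαΔLysM cells among BMMs, 1 among pre-osteoclasts and 0 among mature osteoclasts. By stage, all 10 were lower after RANKL than before it. Mmp8 was detected on 0 arrays, and Mpo and Prtn3 on 0 of the mature osteoclast arrays. The summed level of 15 osteoclast markers was 10360 to 11233 in ERαΔLysM BMMs and 8704 to 9161 in ERα f/f BMMs, and 1 of the 14 tested, Ctsk, which encodes cathepsin K, was higher in ERαΔLysM BMMs (0.61, limma adjusted p = 0.0351). Among pre-osteoclasts 0 of the 14 osteoclast markers were higher in ERαΔLysM cells, and among mature osteoclasts 1 was. The summed level of the macrophage markers (9 genes) was 32563 to 33301 in ERαΔLysM BMMs and 34237 to 34786 in ERα f/f BMMs. For 4 B cell markers, of which 1 was tested and did not pass, it was 157 to 184 in ERαΔLysM BMMs and 123 to 136 in ERα f/f BMMs, with overlap at the later stages. The part of neutrophils, of B cells or of osteoclast differentiation in the Klf2 and Egr1 values was not tested.

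**Figure D4:**
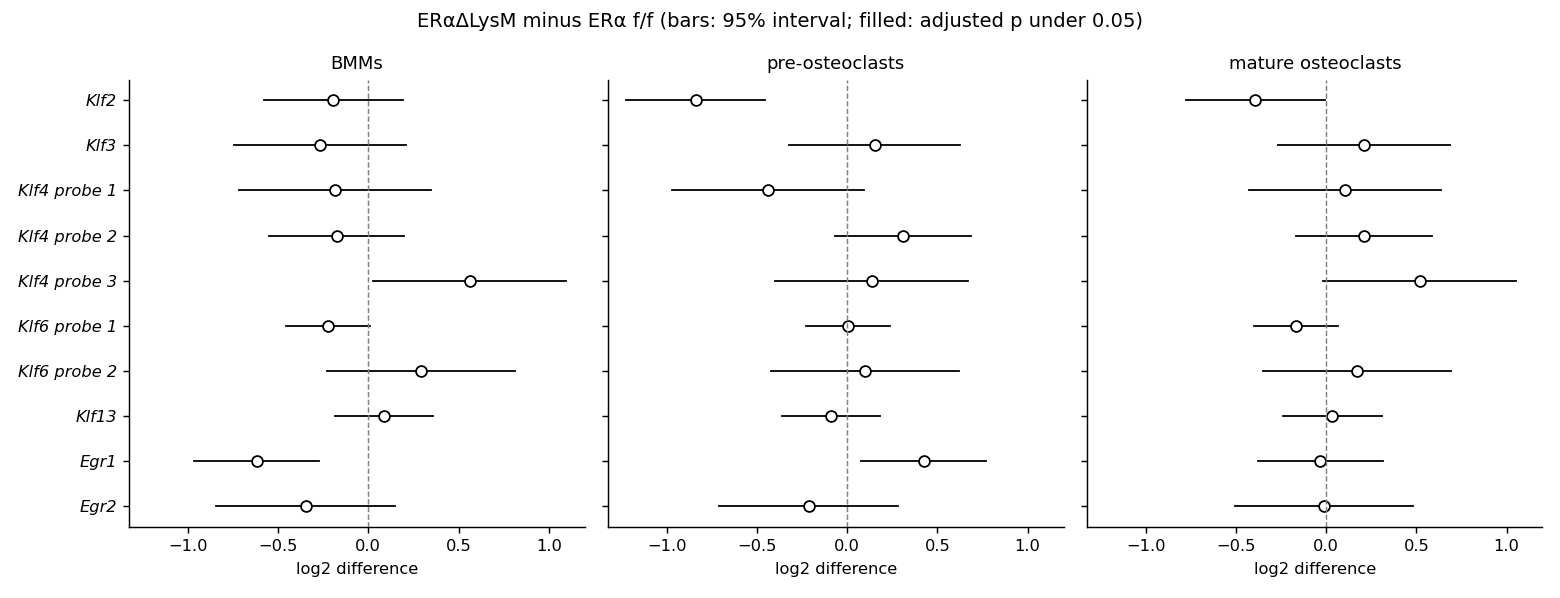
Log2 difference of each member probe between ERαΔLysM and ERα f/f cells at each stage, with 95% confidence intervals. Open points did not pass the test, which holds for every point. The farthest points to the left are Klf2 in pre-osteoclasts (−0.84) and Egr1 in BMMs (−0.62).

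The relatives of the members were then described by lists. Of 17 other KLF and SP family genes on the array, 9 were tested, and in mature osteoclasts against BMMs 3 were higher, 3 lower and 3 did not pass, close to the 34.8% of all probes that were higher and the 33.4% that were lower, with a median log2 difference of 0.23 beside 0.04 for all tested probes. Klf9, a glucocorticoid- and thyroid hormone-responsive member, was the highest, at 1.01 in pre-osteoclasts and 1.50 in mature osteoclasts against BMMs (limma adjusted p = 1.21e-07 and 4.22e-10). Klf5, which promotes proliferation in epithelia, was higher in mature osteoclasts by 0.60 (adjusted p = 0.0138), detected on 3 of 6 mature arrays and 1 of 6 BMM arrays. Sp6, also near background, was higher by 0.38 (adjusted p = 0.0333) by its brightest probe, and 1 of its 2 probes tested passed. That call was lost without background correction (0.12, adjusted p = 0.0836) and with median-scaled arrays (0.32, adjusted p = 0.1499). Klf7, known from neurons and blood progenitors, was lower by a log2 difference of −1.13 (adjusted p = 8.49e-09), and Sp1, a ubiquitous activator, by −0.71 (adjusted p = 0.00535), detected on 1 of 6 mature arrays. Klf16 was lower as well (−0.28, adjusted p = 0.0277). In pre-osteoclasts against BMMs, 2 of the 9 were higher and 1 lower, beside 30.1% and 25.9% of all probes.

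Of 4 other EGR and NAB genes on the array, 3 were tested. The NAB proteins bind EGR factors and repress their activity, and both were lower in mature osteoclasts than in BMMs by the brightest probe of each. By that probe, Nab1 was lower by a log2 difference of −0.47 (limma adjusted p = 6.44e-04). Of its 4 probes tested, 2 were lower and 0 higher. Nab2 was detected on all 6 BMM arrays and on 0 of the 6 mature arrays, which gives at least 1.36-fold lower in mature osteoclasts (adjusted p = 6.405e-06). Without background correction the Nab2 log2 difference was −0.31, smaller in size than this bound. Egr3 differed by 0.34 (adjusted p = 0.0625). With 2 of 3 lower, beside 33.4% of all probes, the list's median was −0.47, beside 0.04 for all tested probes.

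Of 20 other immediate early genes, 13 were tested, and in mature osteoclasts against BMMs 5 were higher, 5 lower and 3 did not pass, near the 34.8% of all probes that were higher and the 33.4% that were lower (median 0.13, beside 0.04 for all probes). Those lower were led by Ier3, a stress-induced survival gene (log2 difference −4.15, limma adjusted p = 1.05e-14), and by Atf3, a stress-induced repressor, detected on 0 of 6 mature arrays and at least 12.2-fold lower (adjusted p = 1.29e-14). Without background correction the Atf3 log2 difference was −2.17, smaller in size than this bound. Dusp1, the phosphatase that inactivates p38 and JNK, was lower (−1.70, adjusted p = 5.61e-12), as was Myc (−0.81, adjusted p = 4.89e-04). Of the 5 higher, the first 4 by size were Junb, an AP-1 subunit (0.91, adjusted p = 5.37e-07), Gadd45b (0.88, adjusted p = 1.77e-04), the orphan nuclear receptor Nr4a2 (0.80, adjusted p = 9.08e-05) and Dusp2, an ERK phosphatase (0.76, adjusted p = 1.88e-04). The other was the AP-1 subunit Fos (0.52, adjusted p = 0.00157), a call lost with median-scaled arrays (0.42, adjusted p = 0.0653). In pre-osteoclasts against BMMs, 5 of the 13 were higher and 6 lower, beside 30.1% and 25.9% of all probes.

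Of 8 regulators of KLF and EGR transcription on the array (serum response factor, its ternary complex partners, MEF2 factors and the MEK5 to ERK5 cascade, which is known to induce Klf2 and Klf4 through MEF2), 7 were tested and all 7 passed in mature osteoclasts against BMMs, 3 higher and 4 lower, beside 34.8% of all probes higher and 33.4% lower (median −0.31, beside 0.04 for all probes). Mef2c was the lowest (log2 difference −4.00, limma adjusted p = 6.25e-15), followed by Mef2a (−2.20, adjusted p = 4.58e-11). In pre-osteoclasts against BMMs, Mef2c stood at −3.53 (adjusted p = 6.18e-14) and Mef2a at −1.87 (adjusted p = 7.56e-10). A link between these levels and those of Klf2 or Klf4 was not tested. Elk3, a ternary complex factor (−0.94, adjusted p = 9.68e-04), and Srf (−0.31, adjusted p = 2.94e-04) were lower by less. Map2k5, which encodes MEK5, was higher (1.55, adjusted p = 3.71e-10), as was Mef2d (1.20, adjusted p = 3.71e-04). Mef2d was detected on 3 of 6 BMM arrays and stood at 0.41 without background correction, where it still passed. Mapk7, which encodes ERK5, was higher too (0.43, adjusted p = 0.0178), detected on 5 of 6 mature arrays and 2 of 6 BMM arrays. The Mapk7 call was lost without background correction (0.13, adjusted p = 0.0529) and with median-scaled arrays (0.29, adjusted p = 0.193).

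Of 17 genes on the array chosen as reported targets of KLF or EGR proteins in various cell types, 13 were tested, and in mature osteoclasts against BMMs 3 were higher, 8 lower and 2 did not pass, beside 34.8% of all probes higher and 33.4% lower (median −0.60, beside 0.04 for all probes). Arg1, an alternative activation marker, was at least 18.1-fold lower, detected on 0 of 6 mature arrays (limma adjusted p = 2.33e-16). Tnf was lower by a log2 difference of −4.16 (adjusted p = 9.94e-14), Id3 by −2.66 (adjusted p = 3.86e-12) and the cell cycle inhibitor Cdkn1a by −1.82 (adjusted p = 3.45e-13). Higher were the integrin subunit Itgb7 (2.29, adjusted p = 8.73e-14), the growth factor Pdgfb (1.41, adjusted p = 2.47e-11) and Nos3, detected on 6 of 6 mature arrays and 0 of 6 BMM arrays and at least 1.35-fold higher (adjusted p = 9.06e-06). Without background correction the log2 differences were −2.71 for Arg1 and 0.28 for Nos3, each smaller in size than its bound. In pre-osteoclasts against BMMs, 3 were higher, 6 lower and 4 did not pass, beside 30.1% and 25.9% of all probes higher and lower. In the comparisons of genotype, 0 genes of any of these lists passed at any stage.

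**Figure D5:**
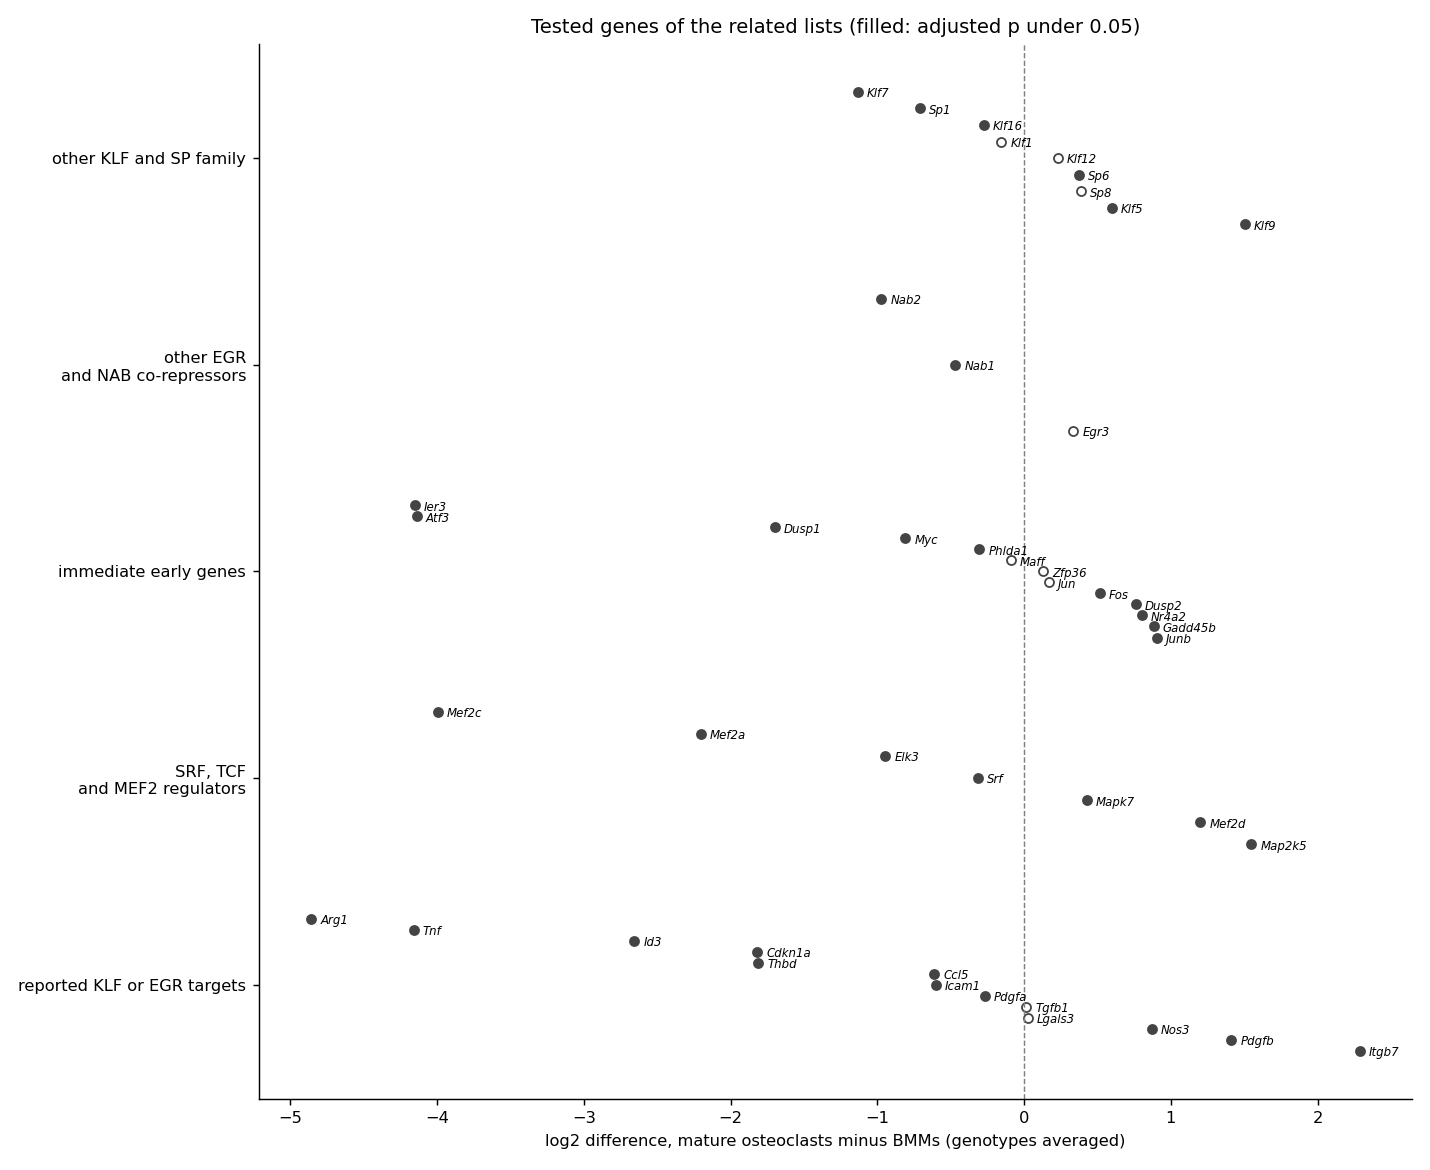
Log2 differences of mature osteoclasts against BMMs for the tested genes of each related list, 1 lead probe a gene. Filled points passed the test and open points did not. Mef2c (−4.00), Ier3 (−4.15), Tnf (−4.16), Atf3 and Arg1 lie farthest to the left, and Itgb7 (2.29), Map2k5 (1.55) and Klf9 (1.50) farthest to the right.

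The genes whose log2 levels followed each member most closely over the 18 arrays are given as a description, since the arrays of a stage share that stage. For Klf2 they were Cd300ld (Pearson r = 0.988), a CD300 family receptor of myeloid cells, and Ogfrl1 (r = 0.987). Cd300ld had mean levels of 11.76, 7.93 and 8.21 from the first stage to the last, the same order as Klf2. For Egr1 they were Tgm2 (r = 0.970), a transglutaminase, and Stk17b (r = 0.966). Tgm2 had means of 12.37, 11.07 and 12.57 at the 3 stages in the same order. For Klf6 probe 1 they were Shisa5 (r = 0.980) and Dusp6 (r = 0.977), the ERK phosphatase, with Dusp6 means of 12.58, 10.44 and 10.27.

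For Klf3 the closest were Pygl (r = 0.947), the liver glycogen phosphorylase, and Sdcbp (r = 0.946), which encodes syntenin. For Klf13 they were Ergic3 (r = 0.940) and Mindy2 (r = 0.940), with Mindy2 means of 8.74, 8.21 and 9.58 in the order of the stages. For Klf4 probe 1 they were Cep78 (r = 0.934), a centrosomal protein gene, and Naa15 (r = 0.918), both lowest in mature osteoclasts. Egr2 had the weakest likenesses, Kif13a (r = 0.894) and Zfp629 (r = 0.886), and both stood lowest in BMMs, as Egr2 did.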

How the data were processed

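RNA of 18 samples was measured on Illumina MouseRef-8 arrays. Gene names follow the annotation of version 2 of the array, although version 1 is named in the paper. The authors deposited mean bead intensity values without normalization, and beside each a detection p-value that sets it against negative control beads. A table of log2 values, deposited after normalization with lumi, differed from the values used here by at most 0.02815.

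Features without a probe ID (832 of 26529) were dropped. For the other 25697, neqc (offset 16) corrected the intensities for background, applied quantile normalization and took log2, in limma 3.58.1 under R 4.3.3. Testing was limited to the 13409 probes detected (p under 0.05) on 3 or more arrays, of which 12632 carried 1 gene symbol and 777 none. A mean per genotype and stage was fitted over all arrays with lmFit and eBayes, leaving 12 residual degrees of freedom beside 3.69 from the prior. The Benjamini-Hochberg method was applied over all tested probes, with a threshold of 0.05. A probe not detected on any array of a group gives a bound, which holds for the background-corrected values only. It sets the mean of the brighter group against, per array, the higher of the dim value and the lowest signal detected.

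Members and lists were chosen with earlier results of these data known. All members were named with every probe. From each list, up to 4 genes a direction were named, by the size of the difference between mature osteoclasts and BMMs among probes that passed, and the 2 closest genes by Pearson correlation for each member's brightest probe. Egr3, Fos, Ctsk and differences of named genes in pre-osteoclasts were added after their values were seen. The alternatives were the deposited log2 values, no background correction, median-scaled arrays, other filters, only the groups compared, a trended robust prior, array weights, replicate blocks, array brightness, a stricter threshold and leaving out each array. The fit was tested on simulated data. Promoters came from RefSeq (GRCm38.p6). Python 3.11.15 with pandas 2.3.3 and matplotlib 3.10.9 drew the figures.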

Additional observations from a re-analysis of the deposited data

How the results depend on the processing

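Leaving out each array in turn gave 8 to 8, 8 to 10 and 6 to 7 member probes that passed in pre-osteoclasts against BMMs, mature osteoclasts against BMMs and mature osteoclasts against pre-osteoclasts. For the genotypes it gave 0 to 0 at each stage, and 0 to 1 and 0 to 0 for the interactions in pre-osteoclasts and mature osteoclasts against BMMs. The count for the genotypes in BMMs, 0 otherwise, was 1 without background correction, with median-scaled arrays and with array weights, each time Egr1, while the count over all tested probes was 43 and became 188, 786 and 296 under these settings and 4 to 38 on leaving out an array. Median scaling put the median of all probes at −0.43, −0.20 and −0.13 for the genotypes in BMMs, pre-osteoclasts and mature osteoclasts and at −0.147 for mature osteoclasts against BMMs. It lowered the share of higher calls to 37.6% in pre-osteoclasts and 36.8% in mature osteoclasts against BMMs, beside 53.7% and 51% otherwise. For the genotypes in BMMs that share was 1.15% beside 30.2%, and in pre-osteoclasts 50% beside 70%. Of 23 stage differences of member probes that passed, 11 shrank by over 1.5 times on the log2 scale without background correction, and with median scaling 4 shrank and 3 grew by as much, while 0 did when an array was left out. Under median scaling the Egr1 difference between mature osteoclasts and BMMs reversed to −0.0208. Array weights brought Klf4 probe 2 (−0.28, adjusted p = 0.0344) and Klf4 probe 3 (−0.43, adjusted p = 0.0233) past the threshold in mature osteoclasts against BMMs. At an adjusted p under 0.01, Klf13 in pre-osteoclasts and in mature osteoclasts against BMMs, Egr1 in mature osteoclasts against BMMs and Klf2 in mature osteoclasts against pre-osteoclasts were lost. Among 31 related genes that passed in pre-osteoclasts against BMMs and 36 in mature osteoclasts, median scaling lost 6 and 4 and turned 0. Without background correction 1 and 2 were lost and 0 turned. In mature osteoclasts against BMMs that setting gave smaller differences for Elk3 (−0.435), Sp1 (−0.22), Klf5 (0.19), Nr4a2 (0.28) and Dusp2 (0.27), while Junb stood at 0.84. With group means removed, same-numbered arrays of the genotypes at a stage correlated at a median of 0.02 over 9 pairs, with 1 above 0.1. Same-numbered arrays from different stages of a genotype correlated at a median of 0.016 over 18 pairs, also with 1 above 0.1. A replicate block, over all arrays or within a genotype, changed 0 of 80 calls. These values cannot settle whether arrays share a mouse, since the labels do not link replicate numbers to mice. The cause of the changes between settings was not tested.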
